A study of Homo sapiens with 2 samples.

Results

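The sterol and fatty acid synthesis genes were taken as a set of 36 named genes, picked by symbol from a table of 26260 gene symbols measured in the colorectal carcinoma cell line HCT-116. They comprise 5 regulators, 19 genes of the sterol branch and 12 genes of the fatty acid branch, and all 36 symbols were in the table. The rule selects by symbol, and the list of symbols was drawn up with earlier results of these data known. Poly-A RNA was sequenced from 1 control library and from 1 library of cells that were serum starved and given lysophosphatidic acid (LPA), a signalling phospholipid, at 10 µM for 24 h. The same treatment statement, serum starvation and LPA together, stands in the record of the control library, so whether the control cells were starved is not clear and any effect of starvation and that of LPA cannot be told apart. With 1 library per group there is no replicate check and no p-value: each difference is one between these libraries.

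Cells make cholesterol from acetyl-CoA through mevalonate, farnesyl diphosphate, squalene and lanosterol, and they make fatty acids from the same acetyl-CoA through malonyl-CoA. Both routes are controlled by the SREBP transcription factors, which are held in the endoplasmic reticulum membrane with their escort SCAP and retained there by INSIG proteins when sterols are plentiful. When sterols run short the complex moves to the Golgi, where the factor is cut free and enters the nucleus. SREBP proteins bind sterol elements in promoters, usually beside sites for the general factors NF-Y and SP1. Many carcinoma cells make much of their own lipid by these routes.

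The deposited values are FPKM, estimated fragments scaled to transcript length and library depth, so levels are per length and can be set side by side between genes. Isoforms were summed per gene, and 35 members had a mean of at least 1 FPKM, as did 11686 genes in all. PNPLA3, a lipase of lipid droplets, was below that level at 0.890 FPKM in control and 0.816 FPKM in LPA. The size of 1 fragment in the lowest values gave an estimated depth of 16757700 fragments in control and 15771700 in LPA. At that depth the 35 members rested on 347 to 43821 fragments in a library, and the counting standard error of their log2 ratio was 0.01 to 0.11, which covers counting error only and not the spread between cultures. The carcinoma label was checked against markers: EPCAM, an epithelial adhesion protein, had 220 and 223 FPKM, and the keratins KRT8 and KRT18 had 1208 and 1507 FPKM and 442 and 741 FPKM in control and LPA. Over the 7 epithelial markers the summed level was 1891 FPKM in control and 2493 FPKM in LPA, and its part in the lower levels of members in LPA was not tested. VIL1 and CEACAM5 were listed at 0 in both libraries. At least 1 FPKM was reached by 1 of 6 fibroblast markers (COL1A1, 5.75 and 4.28 FPKM), 1 of 5 immune markers (CD68, 2.64 and 2.85 FPKM) and 0 of 4 endothelial markers. In these bulk samples fewer cells with a transcript and less RNA per cell cannot be told apart.

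The 250 bases before the start site, taken from RefSeq promoter sequences (GRCh38.p14), are printed for 6 members. They are SREBF2, whose window alone held the sterol element core, then IDI1, LSS and TM7SF2, the sterol genes with the lowest ratios of LPA to control, and NSDHL and EBP, the sterol genes with the highest. The windows are chr22:41832855-41833104 (plus strand) for SREBF2, chr10:1049120-1049369 (minus strand) for IDI1, chr21:46228775-46229024 (minus strand) for LSS, chr11:65111622-65111871 (plus strand) for TM7SF2, chrX:152830813-152831062 (plus strand) for NSDHL and chrX:48521558-48521807 (plus strand) for EBP. Each runs from 5′ to 3′ on the strand of its gene, and capitals mark the NF-Y box CCAAT or its reverse complement ATTGG and, in SREBF2 alone, the sterol element core TCACNCCAC, found there as TCACCCCAC.
SREBF2: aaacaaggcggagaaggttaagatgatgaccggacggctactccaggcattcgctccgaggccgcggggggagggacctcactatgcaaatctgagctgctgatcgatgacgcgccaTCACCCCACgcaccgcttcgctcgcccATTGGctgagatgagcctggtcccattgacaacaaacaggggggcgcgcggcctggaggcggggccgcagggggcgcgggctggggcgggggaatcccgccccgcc
IDI1: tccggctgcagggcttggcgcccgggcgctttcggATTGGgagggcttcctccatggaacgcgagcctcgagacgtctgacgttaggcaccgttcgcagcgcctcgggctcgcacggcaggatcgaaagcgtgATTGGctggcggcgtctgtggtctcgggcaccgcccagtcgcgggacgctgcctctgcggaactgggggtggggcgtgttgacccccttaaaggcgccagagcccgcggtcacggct
LSS: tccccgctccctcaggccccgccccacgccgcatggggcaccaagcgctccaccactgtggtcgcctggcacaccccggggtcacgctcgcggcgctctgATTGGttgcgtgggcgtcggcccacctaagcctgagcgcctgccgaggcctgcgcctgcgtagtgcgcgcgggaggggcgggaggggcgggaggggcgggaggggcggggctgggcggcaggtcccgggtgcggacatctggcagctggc
TM7SF2: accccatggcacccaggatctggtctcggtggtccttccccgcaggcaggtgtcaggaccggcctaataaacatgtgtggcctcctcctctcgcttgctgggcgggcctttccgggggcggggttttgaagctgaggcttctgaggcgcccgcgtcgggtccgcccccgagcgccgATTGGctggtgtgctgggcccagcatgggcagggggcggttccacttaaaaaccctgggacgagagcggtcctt
NSDHL: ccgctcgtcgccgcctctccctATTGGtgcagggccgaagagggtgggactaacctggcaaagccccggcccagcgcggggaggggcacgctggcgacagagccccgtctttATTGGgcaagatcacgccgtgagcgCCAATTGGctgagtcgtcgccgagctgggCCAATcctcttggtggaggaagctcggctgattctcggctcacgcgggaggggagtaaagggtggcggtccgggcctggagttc
EBP: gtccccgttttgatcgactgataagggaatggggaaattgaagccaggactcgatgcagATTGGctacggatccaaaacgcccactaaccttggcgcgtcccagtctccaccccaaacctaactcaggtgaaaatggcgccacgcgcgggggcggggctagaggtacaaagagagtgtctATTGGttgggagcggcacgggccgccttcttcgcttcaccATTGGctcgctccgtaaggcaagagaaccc

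In SREBF2 the sterol core began 133 bases and the NF-Y box 106 bases before the start site. The printed window of IDI1, 1 of 3 windows listed for that gene, with 3, 2 and 0 NF-Y boxes, had them 215 and 117 bases before its start. LSS had 1 at 150 bases and TM7SF2 had 1 at 74 bases. NSDHL had 5, at 228, 138, 113, 110 and 84 bases before its start, of which the boxes at 113 and 110 overlap on opposite strands. EBP had 3, at 191, 70 and 30 bases. Among these 6 promoters, those of the sterol genes with the lowest ratios and those with the highest ratios both held NF-Y boxes.

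Across the members, 31 had a RefSeq promoter, and ACAT2, FASN, PNPLA3, FDFT1 and SQLE had none in the table used. An NF-Y box on either strand was found in 22 of the 31 (71.0%), against 41.8% of the 8793 genes with a promoter and a mean of at least 1 FPKM. By single windows, since a gene can have several start sites, 26 of 42 member windows (61.9%) held the box, against 33.0% of 12805. Sterol genes had it in 14 of 16 cases (87.5%), fatty acid genes in 6 of 10 and regulators in 2 of 5. The GC box GGGCGG, a site for SP1, was in 29 of 31 members (93.5%) and in 76.7% of the expressed genes, and the median GC content of the windows was 67.7% and 65.0%. An E-box CACGTG was in 4 members (12.9%, against 11.4%), and the sterol core in 1 (3.23%, against 1.25%). The NF-Y box was in 6 of 9 members that were at least 1.2-fold lower in LPA and in 16 of the other 22, shares of 66.7% and 72.7%. A match here is a run of letters in a short window and not a binding site.

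Most members were slightly lower in the LPA library. Of the 35 that passed the filter, 26 (74.3%) had a log2 ratio below 0, where the ratio is log2((LPA + 1)/(control + 1)), against 49.8% of all 11686 genes. At least 1.2-fold lower in LPA were 11 members (31.4%), against 14.5% of all genes, and 1 member (2.86%), ACACA, was at least 1.2-fold higher, against 12.6% of all genes. The call of ACACA is at the edge of the threshold: with a pseudocount of 5 its log2 ratio was 0.22 and with its leading isoform alone 0.19, both inside 1.2-fold. At 1.5-fold, TM7SF2 and INSIG2 were lower (5.71%, against 1.54% of all genes) and 0 members were higher (1.45% of all genes were). The call of INSIG2 is also at the edge: with a pseudocount of 5 its log2 ratio was -0.45, inside 1.5-fold. With a pseudocount of 0.1, ELOVL6 reached -0.59, just past 1.5-fold. None of the 35 was 2-fold lower, as 0.205% of all genes were. The median log2 ratio of the 35 members was -0.10 and that of all genes was 0.0009. The summed level of the 36 members was 3047 FPKM in control and 2826 FPKM in LPA, a change of -7.26%.

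**Figure D1:**
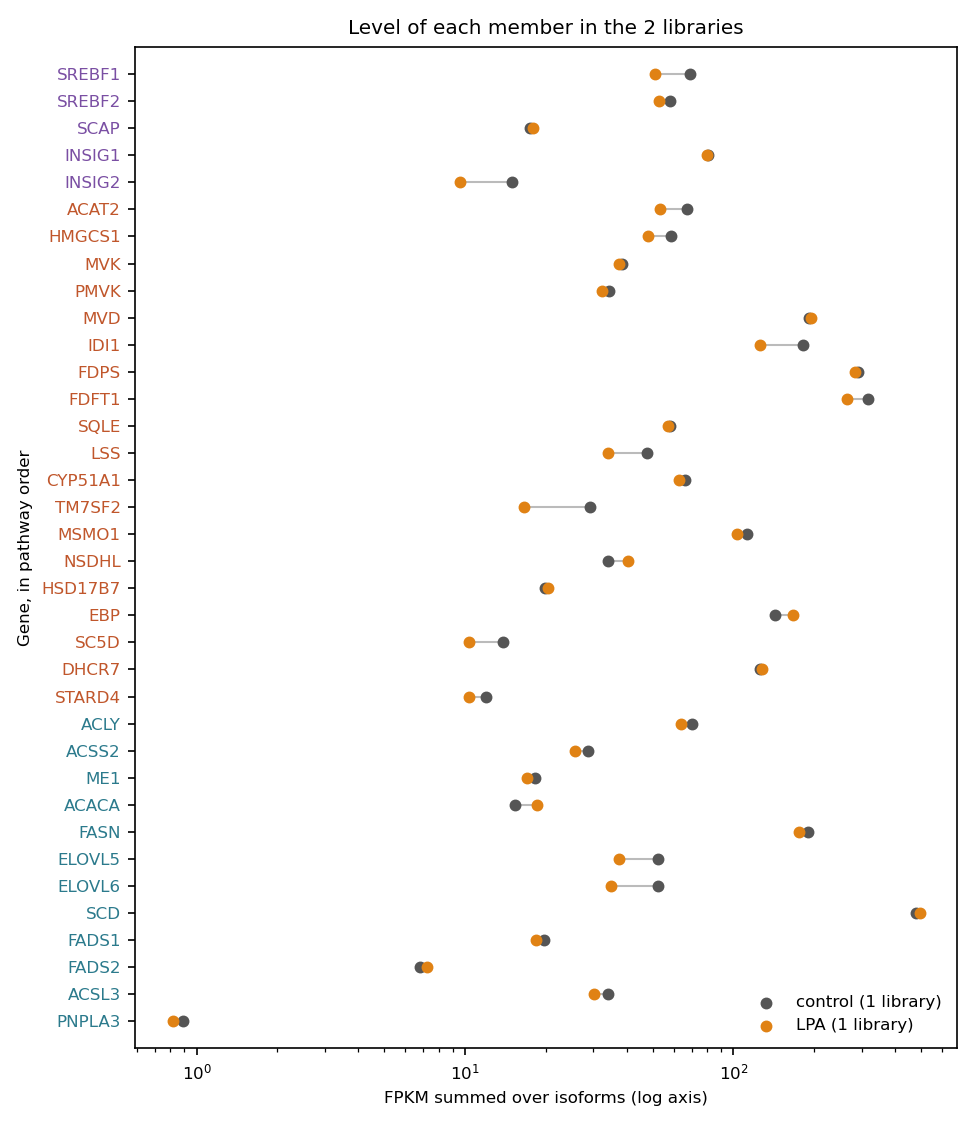
FPKM (log axis) of each member in the control library (grey) and the LPA library (orange), 1 library each, with the gene names grouped and coloured as regulators, sterol branch and fatty acid branch. SCD has the highest level, at 478 and 494 FPKM, PNPLA3 the lowest, and the widest gap between the circles in the sterol branch is that of TM7SF2.

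The ratios were spread from -0.78 for TM7SF2 to 0.26 for ACACA. By the branches, the median log2 ratio was -0.14 for the 5 regulators, -0.09 for the 19 sterol genes and -0.10 for the 11 fatty acid genes that passed. The difference between the medians of the branches is smaller than the spread of genes inside each. A ratio below 0 was found in 14 of 19 genes of the sterol branch (73.7%) and 8 of 11 of the fatty acid branch (72.7%), against 49.8% of all genes. At least 1.2-fold lower were 7 (36.8%) in the sterol branch and 2 (18.2%) in the fatty acid branch, against 14.5% of all genes.

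**Figure D2:**
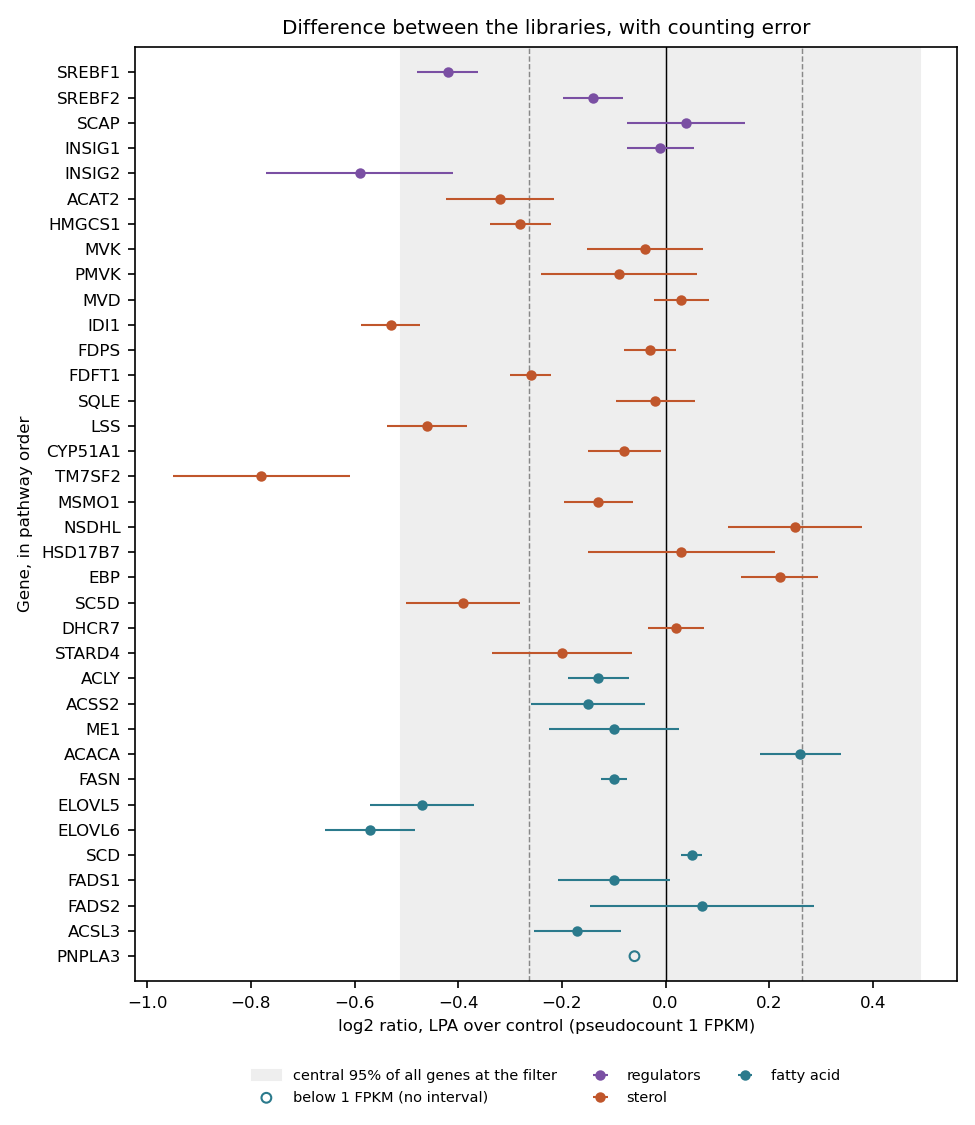
Log2 ratio of LPA over control for the 35 members that passed the filter, coloured by branch, with 95% counting intervals as bars; the grey band holds the central 95% of all 11686 genes (-0.51 to 0.49) and dashed lines mark 1.2-fold. The open circle without a bar is PNPLA3, which was below the filter. TM7SF2, INSIG2, ELOVL6 and IDI1 lie below the band, and no member lies above it.

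Among the regulators, the retention factor INSIG2 and the factor SREBF1 were lower in LPA, while SCAP and INSIG1 differed little. INSIG2 had 15.0 FPKM in control and 9.61 FPKM in LPA (log2 ratio -0.59, counting SE 0.092), and 1.46% of all genes had a ratio at or below that. Its only isoform at 1 FPKM or more, the NM_016133 transcript, carried deposited bounds of 10.7 to 19.3 FPKM in control and 6.76 to 12.5 FPKM in LPA. The bounds overlap, and their level is not stated in the file.

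INSIG1, the other INSIG protein and itself a strongly sterol-responsive gene, had 80.7 FPKM in control and 80.0 FPKM in LPA (log2 ratio -0.01). INSIG1 was thus at a similar level in both libraries while INSIG2 was 35.9% lower in LPA. SCAP, the escort, had 17.49 and 17.95 FPKM in control and LPA (log2 ratio 0.04). The 5 regulators thus ranged from -0.59 to 0.04 in log2 ratio.

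SREBF1, a gene for SREBP protein, had 68.8 FPKM in control and 51.0 FPKM in LPA (log2 ratio -0.42, counting SE 0.03). Both of its isoforms at 1 FPKM or more were lower in LPA: the NM_004176 transcript had 57.4 and 42.5 FPKM, and the NM_001005291 transcript had 11.4 and 8.52 FPKM. Its share of the gene hardly differed, since NM_004176 made up 83.4% of SREBF1 in control and 83.3% in LPA. The deposited locus of SREBF1 also holds RAI1, which had 7.88 and 5.60 FPKM.

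SREBF2, the form that mainly serves sterol genes, had 58.1 FPKM in control and 52.7 FPKM in LPA (log2 ratio -0.14). That gap is inside 1.2-fold, and 28.9% of all genes had a ratio at or below it. The microRNAs MIR33B, in the SREBF1 locus, and MIR33A, in the SREBF2 locus, were listed at 0 in both libraries, which were made from poly-A RNA.

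The first steps of the sterol branch, from acetyl-CoA to farnesyl diphosphate, held 7 members. Of these, 6 (85.7%) had ratios below 0, against 49.8% of all genes. ACAT2, HMGCS1 and IDI1 (42.9%) were at least 1.2-fold lower in LPA, against 14.5% of all genes. IDI1, the isomerase that makes dimethylallyl diphosphate, had 181 FPKM in control and 125 FPKM in LPA (log2 ratio -0.53, counting SE 0.029), and 2.28% of all genes had a ratio at or below that. Its 1 isoform had bounds of 132 to 231 FPKM in control and 90.7 to 160 FPKM in LPA, which overlap. The locus also lists IDI2, a close relative, at 2.64 and 2.88 FPKM, so IDI2 was low in both libraries.

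ACAT2, which joins acetyl-CoA units in the cytosol, had 66.9 and 53.3 FPKM in control and LPA (log2 ratio -0.32). Its locus on chromosome 6 is shared with TCP1, a chaperonin subunit gene on the opposite strand, at 109 and 140 FPKM. TCP1 was thus higher in LPA where ACAT2 was lower. As the TruSeq V2 kit does not mark strand, fragments from the overlap of these genes cannot be told apart.

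HMGCS1, the cytosolic HMG-CoA synthase, had 58.5 FPKM in control and 48.0 FPKM in LPA (log2 ratio -0.28). Both of its isoforms were lower, with 40.4 and 35.2 FPKM for NM_002130 and 18.1 and 12.8 FPKM for NM_001098272. The kinases and the decarboxylase that follow differed less. Mevalonate kinase MVK had 38.3 and 37.4 FPKM (log2 ratio -0.04), and phosphomevalonate kinase PMVK had 34.4 and 32.3 FPKM (-0.09). The decarboxylase MVD had 191 and 195 FPKM (0.03), and farnesyl diphosphate synthase FDPS had 291 and 285 FPKM (-0.03). These 4 genes were within 1.2-fold, so the lower values lay at the entry to the pathway and at IDI1 and not along its whole first stretch.

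At the squalene and lanosterol steps the 3 members all had ratios below 0, as did 49.8% of all genes. FDFT1 and LSS were at least 1.2-fold lower, as were 14.5% of all genes. LSS, the lanosterol synthase that closes the sterol rings, had 47.6 FPKM in control and 34.2 FPKM in LPA (log2 ratio -0.46, counting SE 0.039), and 3.74% of all genes had a ratio at or below that. Its main isoform NM_002340 had 34.3 and 25.3 FPKM, with bounds of 23.4 to 45.3 and 17.3 to 33.2 FPKM, and the second, NM_001145436, had 9.57 and 6.22 FPKM. Both isoforms were lower in LPA.

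FDFT1, the squalene synthase at the branch point to sterols, had 318 FPKM in control and 264 FPKM in LPA (log2 ratio -0.26), just past 1.2-fold. It was the most abundant sterol branch gene in control. SQLE, the squalene epoxidase that lies between FDFT1 and LSS, had 58.0 and 57.2 FPKM (log2 ratio -0.02). Neighbouring steps of the pathway therefore had unequal ratios, with SQLE near 0 and the enzymes on either side of it lower in LPA.

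From lanosterol to cholesterol the 8 members were split, with 4 ratios below 0 and 4 above, and their summed level was 545 FPKM in control and 549 FPKM in LPA. TM7SF2, a sterol reductase acting just after the demethylase CYP51A1, had 29.2 FPKM in control and 16.6 FPKM in LPA (log2 ratio -0.78, counting SE 0.087). It had the lowest ratio of the 35 members, and 0.471% of all genes had a ratio at or below it. Most of its level came from NM_003273, at 26.1 and 16.6 FPKM, while the noncoding NR_102367 had 3.06 FPKM in control and was listed at 0 in LPA. The bounds of NM_003273 were wide, 7.30 to 45.0 FPKM in control and 3.01 to 30.3 FPKM in LPA. TM7SF2 shares a locus with VPS51, at 61.4 and 57.2 FPKM, and how fragments were divided between these genes was not tested. LBR, the nuclear envelope protein with the same reductase activity, had 22.2 and 22.9 FPKM (log2 ratio 0.04), so LBR was the higher of the pair in LPA and TM7SF2 in control.

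SC5D, a late sterol desaturase, had 13.8 FPKM in control and 10.3 FPKM in LPA (log2 ratio -0.39), and 6.76% of all genes had a ratio at or below that. On the other side, NSDHL, which removes the carboxyl group during demethylation, had 34.03 and 40.6 FPKM (log2 ratio 0.25). EBP, the sterol isomerase, had 143 and 167 FPKM (log2 ratio 0.22). NSDHL and EBP were the highest ratios of the sterol branch, and both were inside 1.2-fold. Their promoter windows, printed above, held 5 and 3 NF-Y boxes, and those of MVK, MSMO1 and FDPS, with ratios between -0.13 and -0.03, held 5, 4 and 3. The window of MVD (log2 ratio 0.03) held 3, as did the IDI1 window at chr10:1048887-1049136 (log2 ratio of IDI1 -0.53).

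The remaining late enzymes differed little. DHCR7, the last reductase of 1 branch of the route, had 126 and 128 FPKM (log2 ratio 0.02), and HSD17B7, a keto reductase, had 19.9 and 20.4 FPKM (0.03). The demethylase CYP51A1 had 66.3 and 62.7 FPKM (-0.08), and the methyl oxidase MSMO1 had 113 and 103 FPKM (-0.13). STARD4, which carries sterol between membranes, had 11.99 and 10.3 FPKM (-0.20). STARD4 shares its locus with NREP, at 6.07 and 4.50 FPKM.

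In the fatty acid branch the elongases ELOVL6 and ELOVL5 were lower in LPA and the carboxylase ACACA was higher, while the other 8 genes that passed were within 1.2-fold. ACLY, which makes cytosolic acetyl-CoA from citrate, had 70.0 and 63.8 FPKM (log2 ratio -0.13). ACSS2, which makes it from acetate, had 28.6 and 25.7 FPKM (-0.15), and malic enzyme ME1, a source of NADPH, had 18.3 and 17.0 FPKM (-0.10). The 3 supply genes were thus all a little lower in LPA, where 49.8% of all genes had ratios below 0.

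ACACA makes malonyl-CoA, the first committed step. It had 15.3 FPKM in control and 18.6 FPKM in LPA (log2 ratio 0.26, counting SE 0.04), and 12.5% of all genes had a ratio at or above that. FASN, the synthase that uses malonyl-CoA, had 189 and 176 FPKM (log2 ratio -0.10). The pair at the centre of the branch therefore had ratios of opposite sign.

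ELOVL6, which lengthens palmitate, had 52.5 FPKM in control and 35.0 FPKM in LPA (log2 ratio -0.57, counting SE 0.044), and 1.63% of all genes had a ratio at or below that. Its main isoform NM_001130721 had 47.4 FPKM in control (bounds 33.7 to 61.0) and 30.9 FPKM in LPA (bounds 21.9 to 39.9). ELOVL5, which lengthens polyunsaturated chains, had 52.4 and 37.6 FPKM (log2 ratio -0.47, counting SE 0.051). The lower value of ELOVL5 lay in 1 isoform, NM_021814, at 35.7 and 21.5 FPKM, while NM_001242831, whose bounds were wide, had 14.2 and 13.9 FPKM.

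SCD, the desaturase that makes oleate, was the most abundant member, with 478 FPKM in control and 494 FPKM in LPA (log2 ratio 0.05, counting SE 0.01). The desaturases of polyunsaturated chains were far lower, with 19.7 and 18.3 FPKM for FADS1 (-0.10) and 6.79 and 7.20 FPKM for FADS2 (0.07), and they lie in the same deposited locus. ACSL3, which activates fatty acids with coenzyme A, had 34.2 and 30.2 FPKM (-0.17). The 3 member desaturases SCD, FADS1 and FADS2 were thus within 1.2-fold, and the 2 member elongases were lower.

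**Figure D3:**
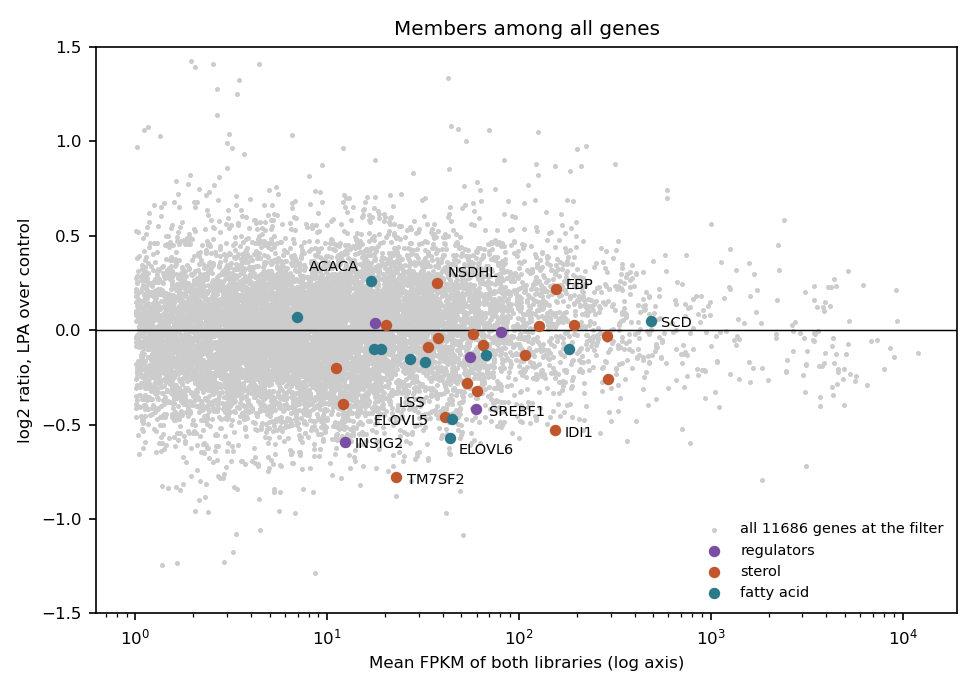
Log2 ratio of LPA over control against mean FPKM of both libraries (log axis) for the 11686 genes at the filter (grey) and the 35 members (coloured by branch); 38 genes lie beyond the plotted range. TM7SF2 has the lowest ratio of the members and SCD the highest mean level.

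Summed levels can hide trades between isoforms, and in 2 members the leading isoform was another one in LPA. Members had 112 isoforms listed, of which 68 had a mean of at least 1 FPKM. In none of these 68 did the deposited bounds of the libraries part, whereas 4.61% of all 16999 isoforms at that level were at least 1.2-fold apart with bounds that did not overlap. Of the 19 members with several such isoforms, CYP51A1 and MSMO1 (10.5%) changed their leading isoform, and so did 20.1% of the 3667 genes with several.

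For CYP51A1, the full-length NM_000786 transcript had 41.7 FPKM in control (bounds 27.4 to 56.0) and 25.9 FPKM in LPA (bounds 15.1 to 36.6), or 62.9% and 41.3% of the gene. The NM_001146152 transcript had 24.6 FPKM in control (bounds 13.2 to 35.9) and 36.8 FPKM in LPA (bounds 23.3 to 50.3), or 37.1% and 58.7%. In the GENCODE v29 annotation (GRCh38) these have 509 and 404 codons on the minus strand of chromosome 7, with first exons at chr7:92134173-92134530 and chr7:92134666-92134803. The isoform with the shorter coding sequence was the one higher in LPA, and its start site lies 273 bases upstream of the other.

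For MSMO1, the NM_006745 transcript had 64.4 FPKM in control (bounds 41.9 to 86.9) and 37.4 FPKM in LPA (bounds 21.3 to 53.6), or 57.1% and 36.3% of the gene. NM_001017369 had 48.3 FPKM in control (bounds 27.3 to 69.4) and 65.6 FPKM in LPA (bounds 42.4 to 88.7), or 42.9% and 63.7%. They have 6 and 5 exons and 293 and 162 codons on the plus strand of chromosome 4. As in CYP51A1, the shorter coding sequence was the higher one in LPA, and the bounds of every isoform overlapped between the libraries.

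**Figure D4:**
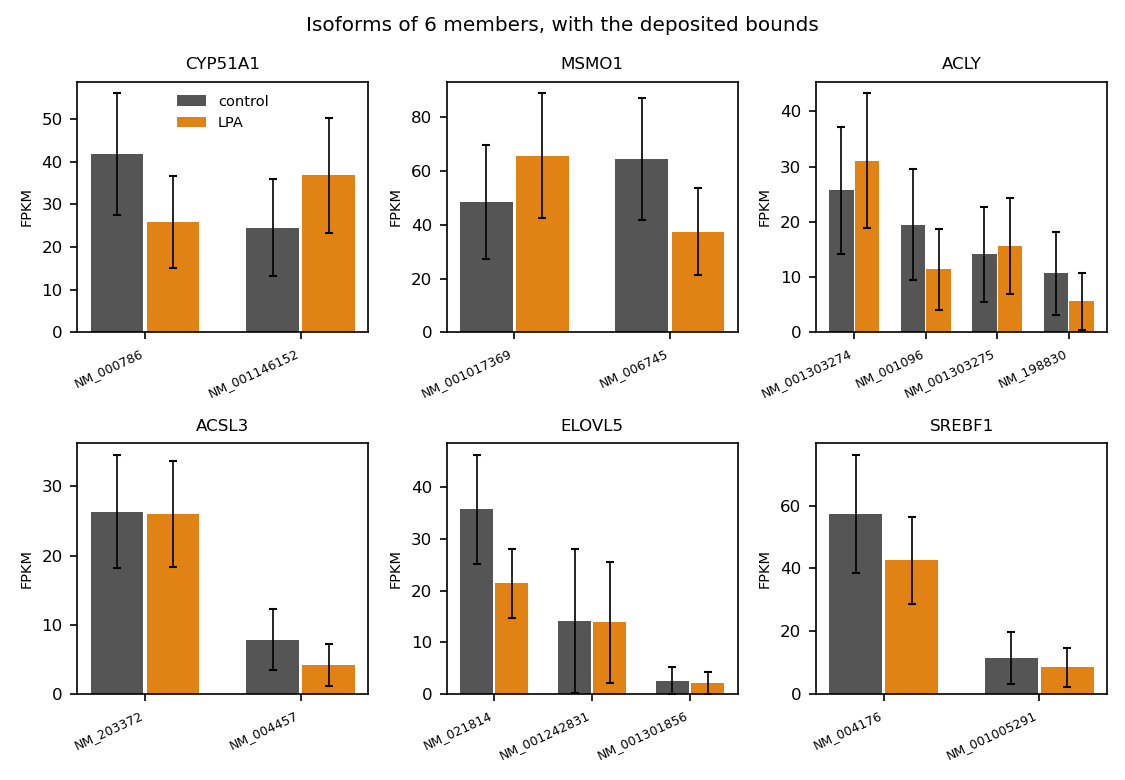
FPKM of each isoform of 6 members in the control (grey bars) and LPA (orange bars) libraries, with the deposited lower and upper bounds (level not stated) as black lines. In CYP51A1 and MSMO1 the taller isoform in control (grey) is the shorter one in LPA (orange), and all bounds overlap between libraries.

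Other members had isoforms that differed unequally without a change of lead. ACLY had 25.7 and 31.1 FPKM for NM_001303274 but 19.5 and 11.4 FPKM for NM_001096, isoforms that differ little in length. ACSL3 had 26.3 and 26.0 FPKM for NM_203372 and 7.84 and 4.16 FPKM for NM_004457. INSIG1 had 66.8 and 61.7 FPKM for NM_005542 and 11.1 and 14.9 FPKM for NM_198336. The bounds overlapped in each case, and how fragments were divided between similar isoforms was not tested.

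The other genes of the pathways were read from wider lists, each to be set against the 14.5% of all genes that were at least 1.2-fold lower and the 12.6% that were higher. Counts of ratios below 0 are to be set against 49.8% of all genes. Among 10 genes of SREBP processing and oxysterol sensing, 6 had ratios below 0 (median -0.04), with MYLIP, a ubiquitin ligase for lipoprotein receptors, at 3.65 and 2.86 FPKM (-0.27). TMEM97, an endoplasmic reticulum protein that responds to sterols, had 32.9 and 42.5 FPKM (0.36). Thus 1 of the 10 was at least 1.2-fold lower and 1 was higher (10.0% each), close to the shares of all genes.

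Of 10 late sterol and isoprenoid enzymes outside the members, 4 had ratios below 0 (median 0.03), 1 was at least 1.2-fold lower and 1 was higher, again 10.0% each. These were the farnesyltransferase subunits, with 48.1 and 39.3 FPKM for FNTA (-0.28) and 1.85 and 2.83 FPKM for FNTB (0.42). FNTB rested on 87 fragments in control and 126 in LPA (counting SE 0.201). Its deposited bounds began at 0 in both libraries and reached 4.38 FPKM in control and 5.98 FPKM in LPA.

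Of 10 cholesterol transport and storage genes 8 passed the filter (median 0.04), and LIPA, the lysosomal lipase, was the 1 past 1.2-fold (12.5%), at 25.1 and 18.2 FPKM (-0.44). Its isoform NM_001127605 had 13.5 FPKM in control (bounds 8.27 to 18.8) and 3.78 FPKM in LPA (bounds 1.43 to 6.14). These bounds do not overlap, as in 4.61% of all isoforms at 1 FPKM or more, and the leading isoform of LIPA was another one in LPA. Of 21 further fatty acid enzymes 17 passed, with 12 ratios below 0 (median -0.09), 2 at least 1.2-fold lower and 2 higher (11.8% each). ACSL4, an acyl-CoA synthetase for arachidonate, had 14.4 and 11.1 FPKM (-0.35), and HSD17B12 of the elongation cycle had 39.1 and 31.4 FPKM (-0.30). TECR, the last enzyme of that cycle, had 166 and 212 FPKM (0.35), and FADS3 had 34.2 and 44.9 FPKM (0.38). Within the elongation cycle ELOVL5, ELOVL6 and HSD17B12 were at least 1.2-fold lower in LPA and TECR was higher. The other genes of the cycle in the lists that passed the filter were within 1.2-fold with ratios below 0. They were HACD1 (-0.25), HACD2 (-0.26), HACD3 (-0.17), ELOVL1 (-0.04) and ELOVL7 (-0.10). The summed ratio of ELOVL7 hides a change of its leading isoform. Its NM_024930 transcript had 3.61 FPKM in control (bounds 2.40 to 4.81) and 1.16 FPKM in LPA (bounds 0.480 to 1.83), bounds that do not overlap. HACD1, at 9.27 and 7.65 FPKM, and HACD2, at 3.62 and 2.87 FPKM, were inside 1.2-fold only through the pseudocount of 1. ELOVL4 was listed at 0 in both libraries.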

How the data were processed

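RNA of 1 control and 1 LPA library was analysed, grouped by sample title. Per the submitters' processing notes, hg38 was the build and the tools were TopHat2 2.0.12, Cuffdiff 2.2.0, Cufflinks and bcl2fastq 2.16.0.10. The scaling between libraries is not given in the sources used here. Values deposited by the authors are FPKM per isoform with lower and upper bounds and a status, per the file headers. From these, isoforms were summed per symbol with Python 3.11.15, pandas 2.3.3 and numpy 2.4.6 (27 isoforms with a status other than OK, none in members, were treated as missing), genes with a mean of at least 1 FPKM were kept, and log2 ratios were taken with a pseudocount of 1, which understates the change of low genes. Depth was estimated from the lowest FPKM of single-isoform genes above 2000 nt. The script was tested on simulated data. All members are named; described most fully are the regulators, the 3 largest ratios of each branch and members whose isoforms traded places (the last chosen after their values were seen), and from each wider list the genes past 1.2-fold, at most 4. Some genes of the wider lists are not reported here. Members and lists were chosen with earlier results of these data known. Alternatives varied the pseudocount, filter, isoform use and scaling.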

Additional observations from a re-analysis of the deposited data

How the results depend on the processing

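Under 10 other settings the median log2 ratios kept their sign: -0.09 to -0.07 for the sterol branch, -0.11 to -0.08 for the fatty acid branch and -0.15 to -0.12 for the regulators. Of the 11 members at least 1.2-fold lower, 9 remained with a pseudocount of 5 (HMGCS1 and FDFT1 did not), 10 with the leading isoform alone (HMGCS1 did not, and CYP51A1 joined), 10 with the same total FPKM in both libraries (FDFT1 did not) and 11 under each of the remaining 7. Several of these 7 could not change the calls and are no check of them. No member isoform was shorter than 300 nt or had a status other than OK. The lowest mean of a passing member was 6.99 FPKM, so neither a filter at 5 FPKM nor its removal touched these members. Centring on the median of all genes shifted each ratio by only 0.0009. ACACA, the 1 member at least 1.2-fold higher, fell inside 1.2-fold with a pseudocount of 5 (0.22) and with the leading isoform alone (0.19). With a pseudocount of 5 the share of all genes at least 1.2-fold lower was 6.79%, and with the leading isoform alone 18.6%. The leading isoform alone moved 8 of 35 single ratios beyond their counting interval and turned the sign of ACLY to 0.27, MSMO1 to 0.43 and STARD4 to 0.16. An alternative added after seeing the data left out the 8 members that share a deposited locus with another gene of at least 1 FPKM. The counts at least 1.2-fold lower then moved from 7 of 19 to 4 of 14 sterol genes and from 2 of 5 to 1 of 4 regulators. ACAT2, IDI1, TM7SF2 and SREBF1 are among the members left out. The count of fatty acid genes stayed at 2, now of 9. Of all genes, 14.5% were at least 1.2-fold lower. The counts of the sterol branch and the regulators thus depend on members in shared loci. The medians were then -0.06 for the sterol branch, -0.13 for the fatty acid branch and -0.08 for the regulators. No paired analysis was possible because each group has 1 library.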

Other observations

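Of 11 fatty acid oxidation genes, 9 had a mean of at least 1 FPKM, and 2 of these (22.2%, against 49.8% of all genes) had ratios below 0 (median log2 ratio 0.08). Both were short- and medium-chain acyl-CoA dehydrogenases and both were at least 1.2-fold lower in LPA (22.2%, against 14.5% of all genes): ACADM had 19.1 FPKM in control and 12.7 FPKM in LPA (-0.55), and ACADS had 16.0 and 12.3 FPKM (-0.36). ECHS1, the enoyl-CoA hydratase of the mitochondrion, had 41.3 and 56.2 FPKM (0.43) and was the 1 at least 1.2-fold higher (11.1%, against 12.6%). The very long-chain dehydrogenase ACADVL had 94.1 and 113 FPKM (0.25). These are differences between 1 library of each kind, with no replicate check.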
